A study of Mus musculus with 12 samples.

Results

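The genes examined here encode the Wnt ligands, their Frizzled receptors and the secreted proteins that tune the signal, measured in brain RNA of mice with a targeted Auts2 gene. Members were chosen by name. They are the protein-coding genes whose symbol is Wnt or Fzd followed by a number, the secreted Frizzled-related genes (Sfrp1, Sfrp2, Sfrp4, Sfrp5 and Frzb), Wif1, Dkk1 to Dkk4, Rspo1 to Rspo4, Lrp5, Lrp6, Axin2 and Ctnnb1. The rule found 47 of the 55487 gene identifiers in the count files. By role they are 19 Wnt ligands, 10 Frizzled receptors, 2 co-receptors, 4 R-spondins, 10 secreted Wnt binders and Dickkopf (Dkk) proteins, and 2 intracellular proteins.

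RNA came from 12 individual male mice in 4 groups of 3. At postnatal day 0 (P0) the whole forebrain was taken from knockouts labelled cmv-cre_auts2-ex7koko and from littermate controls labelled BL6 WTLM. At postnatal day 14 (P14) the hippocampus was taken from knockouts labelled nes-cre_auts2-ex7koko and from littermate controls labelled auts2-ex7-fl-het, that is, heterozygous for the floxed exon. Cmv-cre acts in all tissues, whereas Nes-cre acts mainly in neural progenitors and the cells they give rise to. The labels do not give the Cre status of the P14 controls, so knockouts and controls there may also differ in carrying Cre. Between the 2 contexts the age, the tissue, the Cre driver and the genotype of the controls change at once, and these cannot be told apart.

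Total counts per library ran from 11247150 to 16796797 at P0 and from 16830720 to 23340621 at P14. Auts2, the targeted gene, is given in CPM, counts relative to the library size after trimmed-mean (TMM) scaling within each context. At P0 its level was 176, 194 and 172 CPM in the knockouts and 172, 146 and 167 CPM in the controls. At P14 it was 87.6, 72.4 and 70.7 CPM in the knockouts and 89.7, 91.6 and 103 CPM in the controls. A gene-level count sums every Auts2 transcript, including those that do not use exon 7, so it does not check the deletion. The summed level of 5 forebrain markers lay between 671 and 982 CPM in the P0 libraries, and that of 7 hippocampal markers between 1160 and 1640 CPM in the P14 libraries. The P0 library numbers fall into 2 runs, 1407 to 1410 and 1415 to 1416, with both genotypes in each, and values within each run are given where they bear on a result. In the P0 knockouts and the P14 controls the third library lay apart from the other pair. Chi-square over degrees of freedom between 2 libraries was at least 11.9 against 2.93 in the P0 knockouts and up to 17.5 against 4.98 in the P14 controls. In the P0 controls it was 7.93 and 8.13 with the third library against 3.76 without it. In both P0 groups the third library is the one from the run 1415 to 1416. Leaving out the third P0 knockout raised the number of called genes at P0 from 147 to 775, and leaving out the third P14 control raised that at P14 from 342 to 1808. Without the first or second library of either P0 group, the number at P0 was between 1 and 15, and without the third P0 control it was 249.

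Wnt proteins are lipid-modified secreted ligands that act over short distances. In the canonical branch a ligand joins a Frizzled receptor to the co-receptor Lrp5 or Lrp6, the complex that degrades beta-catenin (Ctnnb1) is held off, and beta-catenin enters the nucleus to act with TCF and LEF factors on targets such as Axin2, which feeds back as an inhibitor. Secreted Frizzled-related proteins and Wif1 bind Wnt ligands outside the cell, most Dickkopf proteins block the co-receptors, and R-spondins raise receptor levels by removing the ligases that degrade Frizzled. In the forebrain, Wnt signals from the cortical hem are needed for the hippocampus to form, and Wnt7a and Wnt7b from neural cells direct the growth of brain vessels.

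Levels were first compared within the control libraries, in TPM, which divides each count by the summed exon length of its gene before scaling to a common total. Ctnnb1 had the highest level in both contexts, 428 ± 12.4 TPM (SD, n = 3) in P0 forebrain and 386 ± 36.3 TPM in P14 hippocampus. Dkk3, a divergent Dickkopf protein, was next at both ages, with 70.8 ± 2.39 TPM at P0 and 290 ± 7.14 TPM at P14. Sfrp1, a secreted Wnt binder, followed at P0 with 63.2 ± 1.43 TPM, and Fzd3, a receptor known for its part in axon growth, followed at P14 with 36.9 ± 4.50 TPM. The ranges of the 3 P0 libraries did not overlap between Ctnnb1, Dkk3, Sfrp1 and Wnt7b, the 4 highest members. Further down, most neighbours in the order could not be told apart: ranges of adjacent members overlapped in 38 pairs and were separate in 8 pairs at P0, and overlapped in 37 pairs and were separate in 9 pairs at P14.

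Among the ligands, Wnt7b and Wnt7a led in both contexts. Wnt7b stood at 50.7 ± 4.71 TPM in P0 controls and 32.0 ± 2.25 TPM in P14 controls, and Wnt7a at 31.2 ± 1.02 and 26.4 ± 3.22 TPM. Together they made up 61.6%, 54.3% and 61.4% of the summed ligand TPM in the 3 P0 controls and 43.0%, 46.9% and 49.7% in the 3 P14 controls. Wnt4 and Wnt5a came next in P14 hippocampus at 20.1 ± 2.60 and 11.1 ± 0.583 TPM. Wnt5a signals mainly through branches that do not use beta-catenin.

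Among the receptors, Fzd3 (48.8 ± 5.20 TPM at P0), Fzd1 (25.8 ± 2.32 TPM) and Fzd9 (23.8 ± 1.86 TPM) were highest in P0 controls, and Fzd5 was lowest at 2.23 ± 0.500 TPM. In P14 controls Fzd3 and Fzd1 (19.3 ± 0.387 TPM) again led, and Fzd5 was again lowest at 1.02 ± 0.213 TPM. Lrp6 exceeded Lrp5 at both ages, with 17.7 ± 2.57 against 5.22 ± 0.402 TPM at P0 and 20.8 ± 4.06 against 4.96 ± 1.13 TPM at P14. Axin2, the feedback target, stood at 17.7 ± 0.819 TPM at P0 and 13.4 ± 1.32 TPM at P14.

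At the bottom of the range, Dkk4 had 0 counts in every library and Wnt8a at most 1 count, which puts 2 members at 3 counts or fewer throughout. Dkk1 had 0 counts in each P14 library and at most 7 counts at P0, and Wnt3a, a cortical hem ligand, had at most 7 counts at P0 and 2 at P14. A total of 3 counts, the limit that a count of 0 allows, equals 0.267 CPM in the shallowest library and 0.129 CPM in the deepest. These limits cover counting error only.

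**Figure D1:**
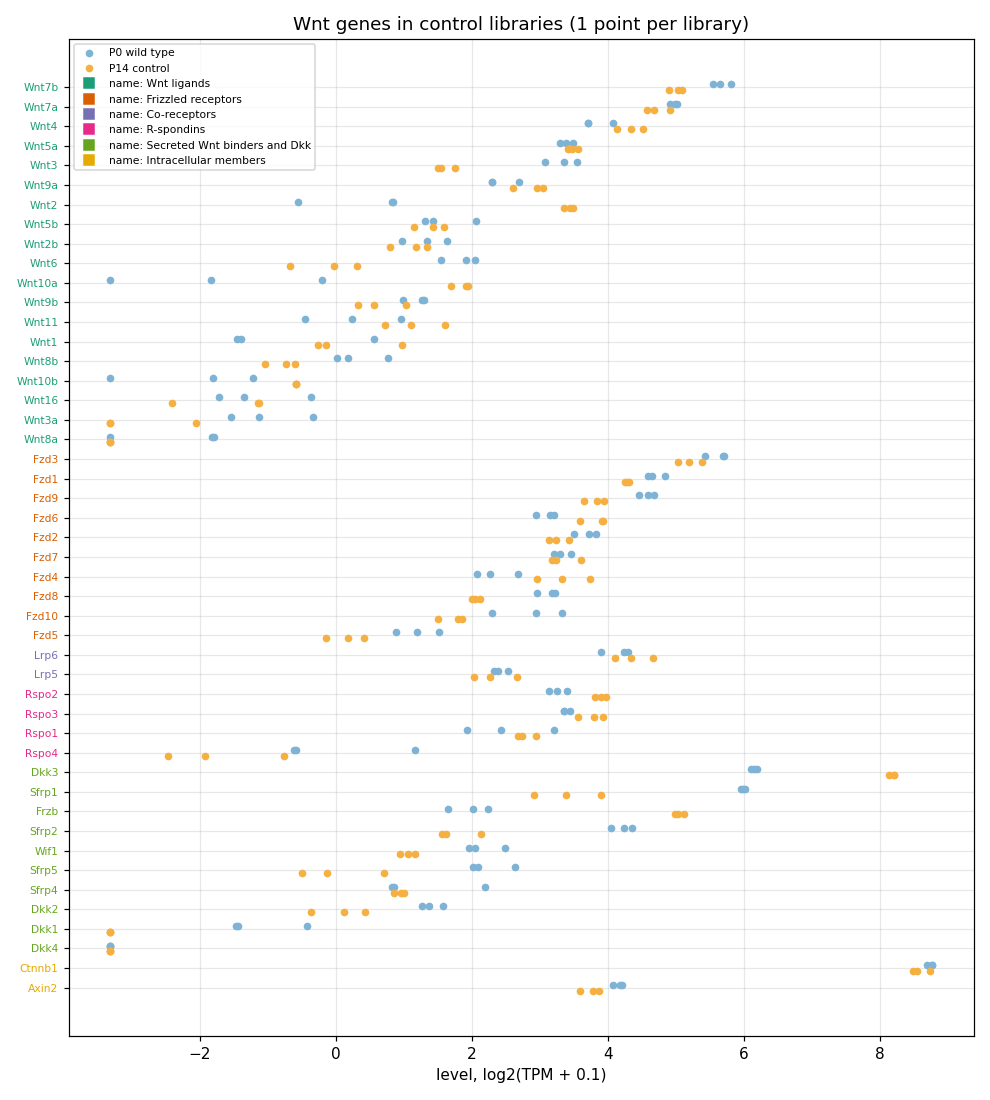
Level of each member in the 6 control libraries, as log2(TPM + 0.1) on the x axis, with 1 point per library (blue, P0 wild type; orange, P14 control) and gene names coloured by role. Ctnnb1 and Dkk3 lie furthest right in both contexts, and Sfrp1 and Frzb lie far apart between them.

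The control groups of the 2 contexts were then compared, P14 hippocampus over P0 forebrain, with edgeR's quasi-likelihood test on the 6 control libraries. A gene was called at a Benjamini-Hochberg adjusted p under 0.05 over all genes tested, here and below. Of the 47 members, 39 passed the low-count filter and 28 were called, 13 higher and 15 lower at P14. Over all 17355 genes tested, 64.7% were called (32.5% higher and 32.2% lower), so a large share of called members is what the whole table shows. In bulk tissue, fewer cells of a type and less RNA per cell cannot be told apart, and here age, tissue and control genotype change together as well.

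The secreted Wnt binders and Dickkopf genes moved in opposite directions. Frzb rose from 3.93, 4.59 and 3.02 TPM in the P0 controls to 34.5, 31.5 and 32.4 TPM in the P14 controls, a log2 fold change of 3.29 (SE 0.16, adjusted p = 2.58e-11 by edgeR). Dkk3 rose 4.62-fold, a log2 fold change of 2.21 (SE 0.08, adjusted p = 1.50e-12 by edgeR). Sfrp1 fell by 2.38 on the log2 scale (SE 0.17), Sfrp2 fell by 2.29 (SE 0.21) and Sfrp5 fell by 2.11 (SE 0.38), with edgeR adjusted p of 3.48e-07, 6.40e-08 and 1.33e-04. No P14 control reached the lowest P0 control for these 3 genes. Sfrp5 had 6, 8 and 15 counts in P14 controls. It passed the low-count filter through the P0 controls, so that the filter itself favoured a fall. Of the 8 binders and Dickkopf genes tested, 2 rose and 5 fell.

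Among the 14 ligands tested, 6 rose and 4 fell. Some of these passed the low-count filter through the age at which they were higher, so that the filter itself favoured a difference. They were Wnt10a and Wnt2, which were too sparse to test at P0, and Wnt8b, too sparse at P14. Wnt6 was another, with 13, 6 and 10 counts in P14 controls. Wnt10a went from 0, 0.522 and 0.119 CPM in P0 controls to 2.50, 2.51 and 1.98 CPM in P14 controls, a log2 fold change of 3.65 (SE 0.54, adjusted p = 2.06e-05 by edgeR). 1 P0 control held no Wnt10a count and another 2 counts, so this fold change has a wide 95% interval, 2.51 to 4.80. It was 5.09 without the second P0 control, which held 6 of the 8 counts in P0 controls, and 3.18 and 3.29 without the first and the third. Wnt2 had 4, 12 and 17 counts in P0 controls and 131, 118 and 126 counts in P14 controls, an 8.86-fold difference (log2 fold change 3.15, SE 0.29, adjusted p = 9.28e-08 by edgeR). Wnt6 fell by 1.86 (SE 0.37) and Wnt3 fell by 1.59 (SE 0.21), with adjusted p of 3.90e-04 and 5.54e-06 by edgeR. Wnt7a, in contrast to these, differed by -0.07 (95% interval -0.29 to 0.15).

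Of the 10 Frizzled receptors, 2 rose and 6 fell. Fzd4, the receptor for norrin on brain vessels, rose by a log2 fold change of 1.19 (SE 0.19, adjusted p = 1.02e-04 by edgeR). The other riser was Fzd6, at 0.90 (SE 0.13), and the lowest value was that of Fzd10, at -1.04 (SE 0.26). Endothelial markers were called higher in 6 of 8 genes and radial glia and progenitor markers called lower in 7 of 8 in the same comparison. These lists were not particular in this. Astrocyte markers were called higher in 7 of 8 genes, oligodendrocyte markers higher in 7 of 7 and striatal markers lower in 10 of 10. Choroid plexus markers were called in 2 of 12, and all genes in 64.7%. The part of these markers in the Wnt results was not tested. Rspo2 (0.81, SE 0.12) and Rspo3 (0.57, SE 0.16) rose as well.

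**Figure D2:**
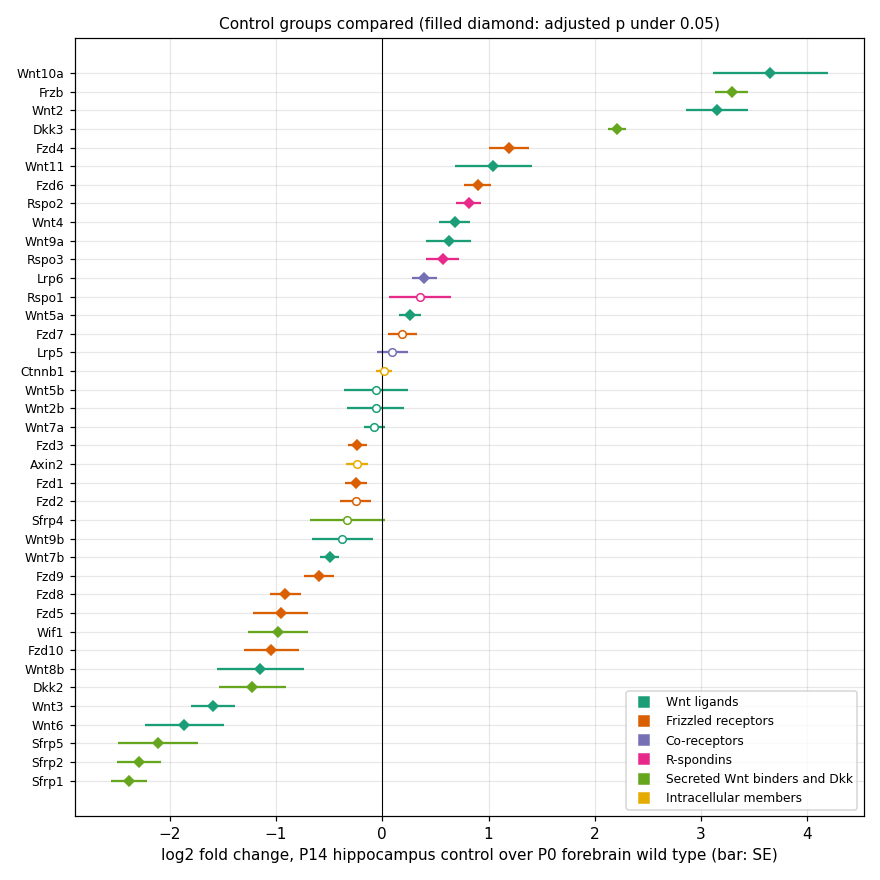
Log2 fold change of each tested member, P14 hippocampus control over P0 forebrain wild type, with SE bars, coloured by role; filled diamonds passed the adjusted threshold and open circles did not. Wnt10a, Frzb, Wnt2 and Dkk3 sit above 2, and Sfrp1, Sfrp2 and Sfrp5 below -2.

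The genotype comparison at P0 asked which Wnt genes differ in the forebrain of Cmv-cre knockouts. None of the 37 members tested was called, against 147 of 16176 genes (0.909%, of which 0.717% were lower) over the whole table. Unadjusted p was under 0.05 for 8 of the 37, against 16.1% of all genes, and knockout and control libraries did not overlap for 10 of them, 4 higher and 6 lower, against 21.6% of all genes (10.2% higher and 11.5% lower). Of the 37 members tested, 21 had a log2 fold change below 0, against 50.1% of all genes. The median log2 fold change was -0.02 over the members and -0.000337 over all genes tested. DESeq2 called 1 member, Wnt7b, against 374 of 16170 genes. The 10 members left untested for low counts were Wnt1, Wnt2, Wnt3a, Wnt8a, Wnt10a, Wnt10b, Wnt16, Rspo4, Dkk1 and Dkk4.

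Wnt7b and Wnt7a had the smallest adjusted p at P0. Wnt7b, made by cortical neurons, stood at 95.2, 89.9 and 78.2 CPM in the knockouts and 67.8, 62.5 and 72.9 CPM in the controls. Every knockout was above every control, with a log2 fold change of 0.37 (SE 0.09, 95% interval 0.17 to 0.57, adjusted p = 0.0746 by edgeR). Wnt7a stood at 34.2, 37.2 and 32.5 CPM in the knockouts and 28.1, 26.3 and 26.7 CPM in the controls, again without overlap, with a log2 fold change of 0.36 (SE 0.10, 95% interval 0.15 to 0.56, adjusted p = 0.0946 by edgeR). Together the pair made up 70.8%, 69.2% and 64.8% of the summed ligand TPM in the knockouts, all above the control shares given earlier.

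Both values moved with the library runs and with the settings. In libraries 1407 to 1410 alone the log2 fold change of Wnt7b was 0.51 (SE 0.08, adjusted p = 7.73e-05 by edgeR) and that of Wnt7a was 0.40 (SE 0.11, adjusted p = 0.0114), while between the single pair 1415 and 1416 the differences were 0.10 and 0.28. Libraries 1407 to 1410 alone gave 4 called members of 37, against 2107 of 16271 genes, by edgeR. Without the third knockout, edgeR called 3 of 38 members, against 775 of 16528 genes. The 3 were Wnt7b (adjusted p = 0.00466), Wnt7a (adjusted p = 0.0246) and Dkk3 (adjusted p = 0.0214). Without any other single library none of these was called, with edgeR adjusted p from 0.0657 to 0.318 for Wnt7b, 0.127 to 0.334 for Wnt7a and 0.271 to 0.465 for Dkk3. The sum of the strand columns gave Wnt7b an adjusted p of 0.101 in edgeR. With the run as a term, Wnt7b had an adjusted p of 0.0465 and Wnt7a one of 0.0531 in edgeR. Over the 37 members, the sign of the difference was the same in both runs for 23. Forebrain markers were higher in the same direction, 889 to 982 CPM summed in knockouts against 671 to 772 CPM in controls, with 5 of 5 higher in sign and 1 called. Summed CA pyramidal markers (758 to 792 CPM in knockouts against 614 to 708 CPM in controls) and choroid plexus markers (1020 to 1140 against 787 to 993 CPM) were higher too. By sign, however, 5 of 8 CA pyramidal genes tested and 5 of 11 choroid plexus genes tested were lower, and 0 were called. Mpped1 made up most of the CA pyramidal sum, at 600.8, 602.8 and 542.3 CPM in knockouts against 457.5, 409.2 and 508.2 CPM in controls. Ttr made up most of the choroid plexus sum, at 1015, 950.8 and 914.3 CPM against 832, 676.9 and 860.5 CPM. Lower without overlap were the sums for dentate granule cells (221 to 237 against 285 to 324 CPM), astrocytes (694 to 703 against 751 to 960 CPM), oligodendrocyte precursors (211 to 218 against 241 to 270 CPM), microglia (51.4 to 56.3 against 57.5 to 75.7 CPM) and striatal neurons (367 to 386 against 405 to 455 CPM). The part of these markers in the P0 values of the Wnt genes was not tested.

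Of the other ligands at P0, the lower values belonged to sparse genes and to Wnt4. Wnt4 stood at 11.0, 11.5 and 13.8 CPM in the knockouts and 15.1, 19.2 and 14.5 CPM in the controls, a log2 fold change of -0.41 (SE 0.15, adjusted p = 0.191 by edgeR). Its difference was -0.60 in libraries 1407 to 1410, where edgeR called it (adjusted p = 0.0127), and -0.07 between 1415 and 1416. Wnt6 had 16, 9 and 13 counts in the knockouts and 19, 28 and 36 counts in the controls, a log2 fold change of -1.07 (SE 0.34, adjusted p = 0.138 by edgeR). With so few knockout counts, Wnt6 passed the low-count filter through the controls, and the filter itself favoured a fall. Wnt9b stood at 1.87, 1.15 and 1.94 CPM in the knockouts and 2.34, 2.87 and 2.85 CPM in the controls, a log2 fold change of -0.69 (SE 0.29, adjusted p = 0.263 by edgeR). For these 3 ligands no knockout reached the lowest control. Within the runs 1407 to 1410 and 1415 to 1416 the differences were -0.93 and -1.21 for Wnt6 and -0.77 and -0.52 for Wnt9b.

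Among the secreted Wnt binders and Dickkopf genes at P0, Dkk3 and Wif1 had an unadjusted p under 0.05. Dkk3 stood at 85.2, 78.5 and 69.5 CPM in the knockouts and 65.7, 67.7 and 61.4 CPM in the controls, without overlap, a log2 fold change of 0.26 (SE 0.09, adjusted p = 0.183 by edgeR). Wif1 stood at 1.11, 1.95 and 1.94 CPM in the knockouts and 2.52, 3.65 and 2.62 CPM in the controls, without overlap, a log2 fold change of -0.80 (SE 0.30, adjusted p = 0.216 by edgeR). Of the 8 binders and Dickkopf genes tested, 6 had a value below 0, and none was called. Sfrp1, the most abundant Wnt binder, differed by 0.03 (95% interval -0.19 to 0.24). Markers of meninges, fibroblasts and mural cells were lower in sign in 10 of 10 genes with 0 called, at 216 to 305 CPM summed in knockouts against 291 to 325 CPM in controls. Their part in the lower values of ligands, binders and Dickkopf genes was not tested.

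The receptors differed little at P0. Their log2 fold changes ran from -0.45 to 0.22, and 7 of 10 were above 0. Fzd1 stood at 34.9, 32.7 and 35.7 CPM in the knockouts and 29.0, 27.8 and 31.9 CPM in the controls, without overlap, a log2 fold change of 0.22 (SE 0.10, adjusted p = 0.289 by edgeR). Lrp6 differed by 0.12 and Lrp5 by -0.02. Fzd9 and Fzd10 lie near Auts2 on chromosome 5 of GRCm38, with Auts2 from 131437333 to 132543344, Fzd10 from 128600844 to 128604093 at 2.83 Mb away, and Fzd9 from 135248938 to 135251230 at 2.71 Mb away. These 2 genes had the lowest receptor values at P0, -0.31 for Fzd9 and -0.45 for Fzd10, with libraries that overlapped and adjusted p of 0.320 and 0.432 by edgeR. At P14 they differed by 0.01 and 0.09.

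Neither intracellular member was called at P0. Ctnnb1 stood at 581, 574 and 549 CPM in the knockouts and 594, 620 and 606 CPM in the controls, a log2 fold change of -0.10 (95% interval -0.24 to 0.05). Axin2, the readout of canonical signalling, differed by -0.02 (95% interval -0.24 to 0.20).

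At P14 the same comparison was made between Nes-cre knockouts and their controls in the hippocampus. Of the 40 members tested 1 was called, Wnt9b, which fell, against 342 of 17208 genes (1.99%, with 1.21% higher and 0.773% lower) over the whole table. Unadjusted p was under 0.05 for 9 members, against 15.2% of all genes, and libraries did not overlap for 10 of them, 3 higher and 7 lower, against 20.1% (10.3% higher and 9.83% lower). Of the 40 members tested, 21 had a log2 fold change below 0, against 51.5% of all genes. The median log2 fold change was -0.01 over the members and -0.00733 over all genes. The untested members were Wnt3a, Wnt8a, Wnt8b, Wnt16, Rspo4, Dkk1 and Dkk4.

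Wnt9b fell in the P14 knockouts. It had 15, 13 and 11 counts in the knockouts and 46, 27 and 32 counts in the controls, or 0.702, 0.564 and 0.657 CPM against 2.45, 1.41 and 1.58 CPM. All knockouts lay below all controls, with a log2 fold change of -1.49 (SE 0.33, 95% interval -2.20 to -0.78, adjusted p = 0.0309 by edgeR). The call was kept by DESeq2 (adjusted p = 0.0280) and without the third control (log2 fold change -1.58, adjusted p = 0.0100 by edgeR). It was lost, at the same threshold, without any other single library. The log2 fold change and edgeR adjusted p were then -1.57 and 0.122 without the first knockout, -1.40 and 0.135 without the second, -1.51 and 0.0931 without the third, -1.22 and 0.151 without the first control, and -1.64 and 0.0676 without the second. Wnt9b is known from kidney and facial development, and in these libraries it was among the sparser ligands, at 1.49 ± 0.412 TPM in P14 controls.

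Wnt9b (chromosome 11, 103727364 to 103749821, minus strand) is a divergent neighbour of Wnt3 (103774150 to 103817957, plus strand), with 24.3 kb and no other protein-coding gene between them. Wnt3 was also lower in each P14 knockout, at 1.31, 2.04 and 1.85 CPM against 2.34, 2.72 and 2.22 CPM, but it was not called (log2 fold change -0.48, SE 0.25, adjusted p = 0.391 by edgeR). The sequences below are the 250 bases upstream of the RefSeq start of each gene, GRCm38.p6, shown 5′ to 3′ on the gene's own strand, for the called ligand and its neighbour. Wnt11 is added as a member with a promoter that holds a TCF/LEF motif, in capitals. Another RefSeq promoter of Wnt11, at chr7:98838595-98838844, holds no motif and is not shown. Wnt9b lies at chr11:103749822-103750071, Wnt3 at chr11:103773925-103774174 and Wnt11 at chr7:98834862-98835111.
Wnt9b: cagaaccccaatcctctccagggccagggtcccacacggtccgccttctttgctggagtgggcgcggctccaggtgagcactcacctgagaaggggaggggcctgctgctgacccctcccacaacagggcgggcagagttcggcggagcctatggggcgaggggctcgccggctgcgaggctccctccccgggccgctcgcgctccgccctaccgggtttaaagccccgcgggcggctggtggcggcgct
Wnt3: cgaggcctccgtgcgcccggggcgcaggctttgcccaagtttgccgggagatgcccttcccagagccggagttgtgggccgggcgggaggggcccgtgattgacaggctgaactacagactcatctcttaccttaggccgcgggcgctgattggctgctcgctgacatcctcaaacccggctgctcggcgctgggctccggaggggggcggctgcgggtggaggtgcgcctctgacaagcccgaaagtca
Wnt11: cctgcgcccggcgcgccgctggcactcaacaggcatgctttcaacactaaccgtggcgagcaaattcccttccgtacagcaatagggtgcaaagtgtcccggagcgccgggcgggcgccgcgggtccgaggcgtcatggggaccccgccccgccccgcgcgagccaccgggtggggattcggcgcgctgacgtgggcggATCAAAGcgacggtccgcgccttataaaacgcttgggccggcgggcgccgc
The motifs searched were CTTTGAA and CTTTGAT on both strands, which differ in their last base and cannot overlap each other at the same place. RefSeq gave 35 promoters for 31 of the members, and 3 of these promoters held a motif, 1 each for Wnt11, Wnt5b and Dkk1. Wnt5b, like Wnt11, also has promoters without a motif. Over all 32851 promoters of this length, 7.48% held one. The Wnt9b and Wnt3 windows hold neither motif.

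The other 3 Wnt pairs that lie within 100 kb of each other, with no protein-coding gene between, are given next. They held no gene called at P14, where Wnt9b was the only called member. Wnt10a, 6.2 kb from Wnt6 on chromosome 1, stood at 0.983, 1.43 and 1.08 CPM in the knockouts and 2.50, 2.51 and 1.98 CPM in the controls, without overlap, a log2 fold change of -0.99 (SE 0.27, adjusted p = 0.0791 by edgeR). Wnt6 differed by 0.30 (SE 0.52). Wnt9a, 16.2 kb from Wnt3a on chromosome 11, stood at 8.34, 9.28 and 10.3 CPM in the knockouts and 7.50, 6.89 and 5.09 CPM in the controls, without overlap, a log2 fold change of 0.52 (SE 0.17, adjusted p = 0.135 by edgeR), while Wnt3a was too sparse to test. Wnt10b and Wnt1, 11.7 kb apart on chromosome 15, differed by 0.84 (SE 0.43) and 0.26 (SE 0.40), with libraries that overlapped.

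Wnt5a was the other ligand with an unadjusted p under 0.05, at 20.1, 16.4 and 22.1 CPM in the knockouts and 23.9, 22.2 and 23.4 CPM in the controls. The libraries were separate by a narrow margin, and the log2 fold change was -0.25 (SE 0.11, adjusted p = 0.305 by edgeR). Wnt7a and Wnt7b, the leading ligands, differed by -0.13 (95% interval -0.40 to 0.13) and 0.09 (95% interval -0.09 to 0.28).

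Among the secreted modulators at P14, Frzb came closest to the threshold. It stood at 21.9, 23.4 and 21.9 CPM in the knockouts and 31.0, 27.6 and 26.9 CPM in the controls, without overlap, a log2 fold change of -0.35 (SE 0.09, adjusted p = 0.0703 by edgeR). Rspo2, which raises Wnt receptor levels, stood at 12.6, 17.5 and 15.8 CPM in the knockouts and 19.8, 21.5 and 19.4 CPM in the controls, without overlap, a log2 fold change of -0.40 (SE 0.12, adjusted p = 0.116 by edgeR). Sfrp5 had 22, 27 and 21 counts in the knockouts and 6, 8 and 15 counts in the controls, a log2 fold change of 1.20 (SE 0.38, adjusted p = 0.135 by edgeR). With so few control counts, Sfrp5 passed the low-count filter through the knockouts, and the filter itself favoured a rise. The same holds for its value without the third control, given below. Dkk3 differed by -0.05 (95% interval -0.20 to 0.09).

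Several of these results depended on whether the third control was included. Without it, edgeR called 6 of 41 members tested, against 1808 of 17491 genes over the whole table. The 6 were Wnt9b, Wnt10a (-1.09, adjusted p = 0.0233), Frzb (-0.39, adjusted p = 0.0111), Rspo2 (-0.43, adjusted p = 0.0351), Sfrp5 (1.62, adjusted p = 0.0268) and Ctnnb1 (0.23, adjusted p = 0.0171). Without any other single library none was called. Testing without the low-count filter called 4 of 44 members, Wnt9b, Wnt10a, Frzb and Rspo2, against 814 of 32767 genes.

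Receptors and intracellular members showed small differences at P14. Frizzled values ran from -0.29 to 0.36, 4 of 10 above 0, and the only one with an unadjusted p under 0.05 was Fzd6, at 14.6, 13.4 and 16.6 CPM in the knockouts and 16.0, 19.7 and 18.5 CPM in the controls. Its libraries overlapped (log2 fold change -0.29, SE 0.12, adjusted p = 0.262 by edgeR). Ctnnb1 stood at 606, 622 and 608 CPM in the knockouts and 517, 524 and 568 CPM in the controls, without overlap, a log2 fold change of 0.19 (SE 0.07, adjusted p = 0.187 by edgeR). Axin2 differed by 0.08 (95% interval -0.14 to 0.29).

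Cell type markers were read from the same P14 fit. Dentate granule cell markers were called lower in 8 of 11 genes, with 457 to 490 CPM summed in knockouts against 638 to 697 CPM in controls. Markers of meninges, fibroblasts and mural cells were lower in sign in 10 of 10, with 0 called, at 272 to 385 CPM against 394 to 432 CPM. Striatal markers were higher in sign in 9 of 10 with 1 called, at 190 to 290 CPM against 144 to 183 CPM, and 4 of 11 cortical excitatory markers were called higher. Endothelial markers were lower in sign in 8 of 8, with 0 called, at 181 to 197 CPM summed in knockouts against 223 to 230 CPM in controls. The cortical hem sum was 21.8 to 25.9 CPM against 26.3 to 28.7 CPM, but 5 of its 6 genes are Wnt members themselves, Rspo2 among them. The thalamus and hypothalamus sum was 183 to 197 CPM against 205 to 241 CPM, and the 7 hippocampal markers of the tissue check stood at 1160 to 1270 CPM against 1320 to 1640 CPM. Higher without overlap were the sums for oligodendrocyte precursors (444 to 500 against 402 to 437 CPM) and CA pyramidal neurons (986 to 1020 against 928 to 979 CPM). The oligodendrocyte precursor list had 5 of 6 genes higher in sign and 0 called. Of the 9 CA pyramidal genes, however, 1 was called higher and 2 lower, with 5 higher and 4 lower in sign. Among them Mpped1 stood at 233.9, 224.1 and 258.4 CPM in knockouts against 166.2, 184.5 and 163.4 CPM in controls. Choroid plexus markers ranged from 286 to 3210 CPM among the 3 controls and from 1660 to 2470 CPM among the knockouts, with 0 called. The part of all these markers in the P14 values of the Wnt genes was not tested.

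**Figure D3:**
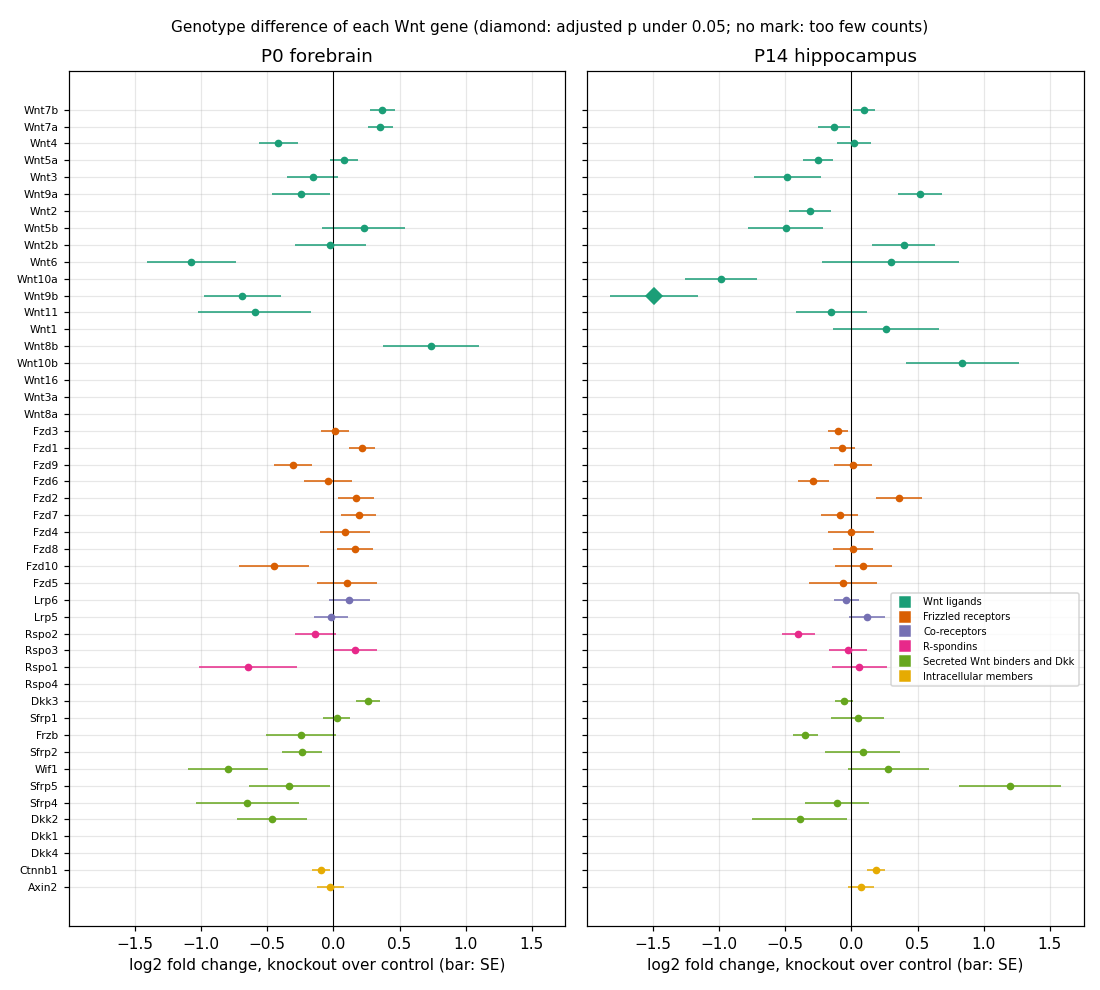
Log2 fold change of each member, knockout over control, with SE bars, for P0 forebrain (left) and P14 hippocampus (right), coloured by role; a diamond marks an adjusted p under 0.05. Only Wnt9b at P14 carries a diamond, at -1.49.

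**Figure D4:**
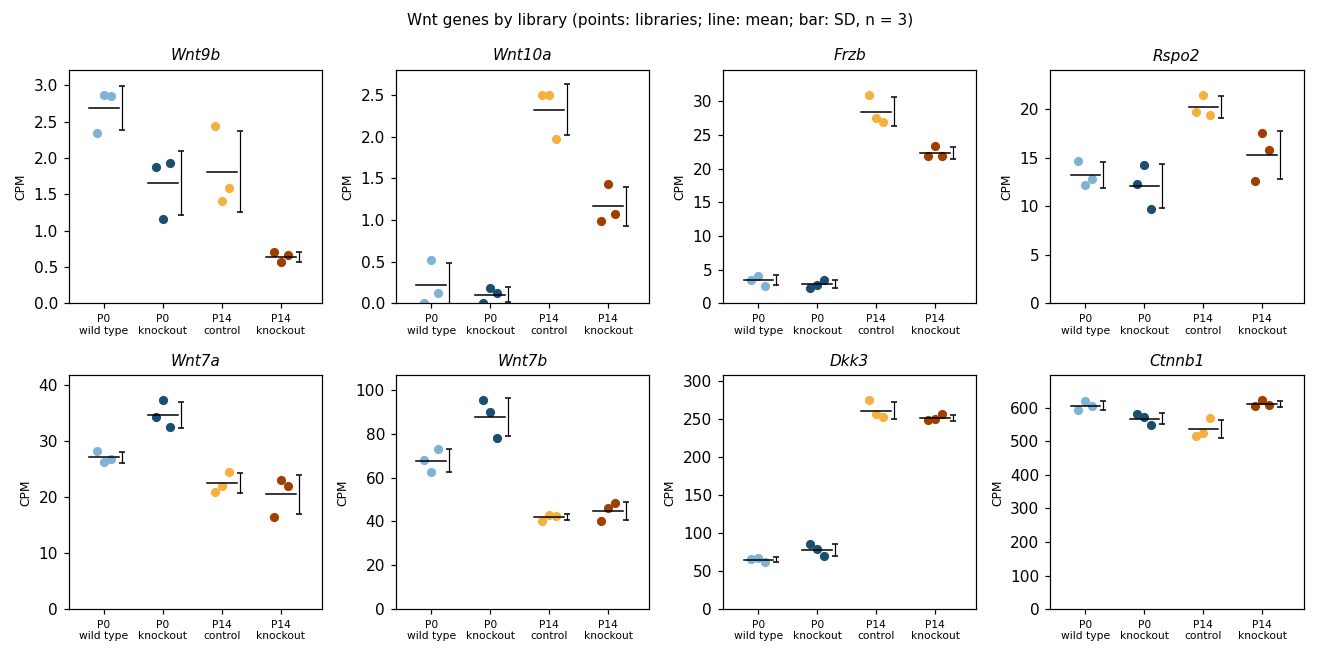
CPM of 8 members in each library, by group, with the mean as a line and the SD as a bar (n = 3). The Wnt9b, Wnt10a, Frzb and Rspo2 knockouts lie below their controls at P14, and the Wnt7a, Wnt7b and Dkk3 knockouts above theirs at P0.

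Whether the genotype difference itself differed between contexts was tested in 1 edgeR model of the 12 libraries, as the P14 effect minus the P0 effect. No member of 40 tested was called by edgeR, against 326 of 18189 genes (1.79%), and unadjusted p was under 0.05 for 10 members, against 15.3% of all genes. DESeq2 called 1 member, Ctnnb1 (0.28, adjusted p = 0.0292), against 531 of 18181 genes. The smallest adjusted p in edgeR belonged to Wnt7a (-0.50, SE 0.16, adjusted p = 0.123) and Sfrp5 (1.51, SE 0.49, adjusted p = 0.124). Dkk3 had a value of -0.33 (SE 0.11, adjusted p = 0.154 by edgeR), and Wnt9b one of -0.82 (SE 0.44, adjusted p = 0.388 by edgeR). The difference between contexts was thus tested for Wnt9b and not called, and its call at P14 alone does not show one. At P0 Wnt9b was lower as well (log2 fold change -0.69) and not called.

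Some members share sequence with a gene on the opposite strand, and the library kit's counts were not separated by strand. For 5 members, over 10% of the reads in the strand-specific count columns were absent from the count used, since reads over such an overlap are dropped. The shares were 32.7% for Ctnnb1 (overlap with Ulk4), 27.9% for Sfrp2 (Gm26771), 20.7% for Rspo3 (Gm48159), 15.5% for Fzd5 (Gm38058) and 11.5% for Axin2 (Gm11670). With the sum of the strand columns, an alternative added after this was seen, the P14 value of Ctnnb1 was 0.11 (adjusted p = 0.444 by edgeR) in place of 0.19. Wnt9b had -1.51 (adjusted p = 0.0322 by edgeR) on that count.

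The other genes of the pathway were read from the same fits, as 66 genes in lists for secretion, receptor turnover, further modulators, planar polarity, the destruction complex, TCF/LEF factors and feedback targets. At P0, 1 of 63 tested was called, lower (1.59%, against 0.909% of all genes). This was Dkkl1, a Dickkopf-like secreted protein, at 1.36, 1.42 and 1.42 CPM in the knockouts and 4.60, 3.31 and 3.62 CPM in the controls, a log2 fold change of -1.44 (SE 0.26, adjusted p = 0.0280 by edgeR). The call was lost without the first knockout (adjusted p = 0.111), the second knockout (0.110), the first control (0.178) or the second control (0.120), with values from -1.54 to -1.30 on the log2 scale.

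At P14, 3 of 63 were called, 2 higher and 1 lower (4.76%, against 1.99% of all genes). Lef1, the TCF/LEF factor that is itself a target of beta-catenin, stood at 2.01, 2.34 and 2.27 CPM in the knockouts and 5.21, 5.43 and 4.15 CPM in the controls. It fell without overlap, with a log2 fold change of -1.16 (SE 0.20, adjusted p = 0.00823 by edgeR). The call was lost without the first knockout (-1.09, adjusted p = 0.0613) or the second control (-1.08, adjusted p = 0.0645), and the value was -0.75 (adjusted p = 0.0358) with the sum of the strand columns. Brain endothelium also expresses Lef1, and the summed endothelial markers were lower without overlap in the same libraries, as given above. Their part in the fall of Lef1 was not tested. Tle3, a co-repressor that TCF factors recruit, rose from 49.0, 47.5 and 49.0 CPM in the controls to 77.5, 73.6 and 68.9 CPM in the knockouts, a log2 fold change of 0.60 (SE 0.08, adjusted p = 7.33e-04 by edgeR), and kept its call without each library. Ptk7, a planar polarity co-receptor, rose from 11.4, 11.2 and 12.3 CPM to 18.5, 15.4 and 15.5 CPM, a log2 fold change of 0.50 (SE 0.12, adjusted p = 0.0409 by edgeR). It kept its call only without the third control (0.54, adjusted p = 0.00869), and without any other library its adjusted p lay between 0.0810 and 0.258.

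By list at P14, the 13 TCF/LEF genes and co-factors held 1 riser (Tle3) and 1 that fell (Lef1), the 14 feedback targets held 1 that fell, again Lef1, and the 15 planar polarity genes tested held 1 riser, Ptk7. The destruction complex (13 tested), the further modulators (10 tested), the R-spondin receptors and ligases (5 tested) and the secretion genes (2 tested) held no called gene in edgeR, with 3, 2, 0 and 0 genes at an unadjusted p under 0.05. Lef1 and Tcf7l2 also stand on the thalamus and hypothalamus marker list, of which 2 of 9 tested genes were called lower and 1 higher at P14. Tcf7l2 itself stood at 7.21, 8.15 and 7.11 CPM in the knockouts and 14.1, 10.5 and 8.25 CPM in the controls (log2 fold change -0.54, adjusted p = 0.146 by edgeR).

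**Figure D5:**
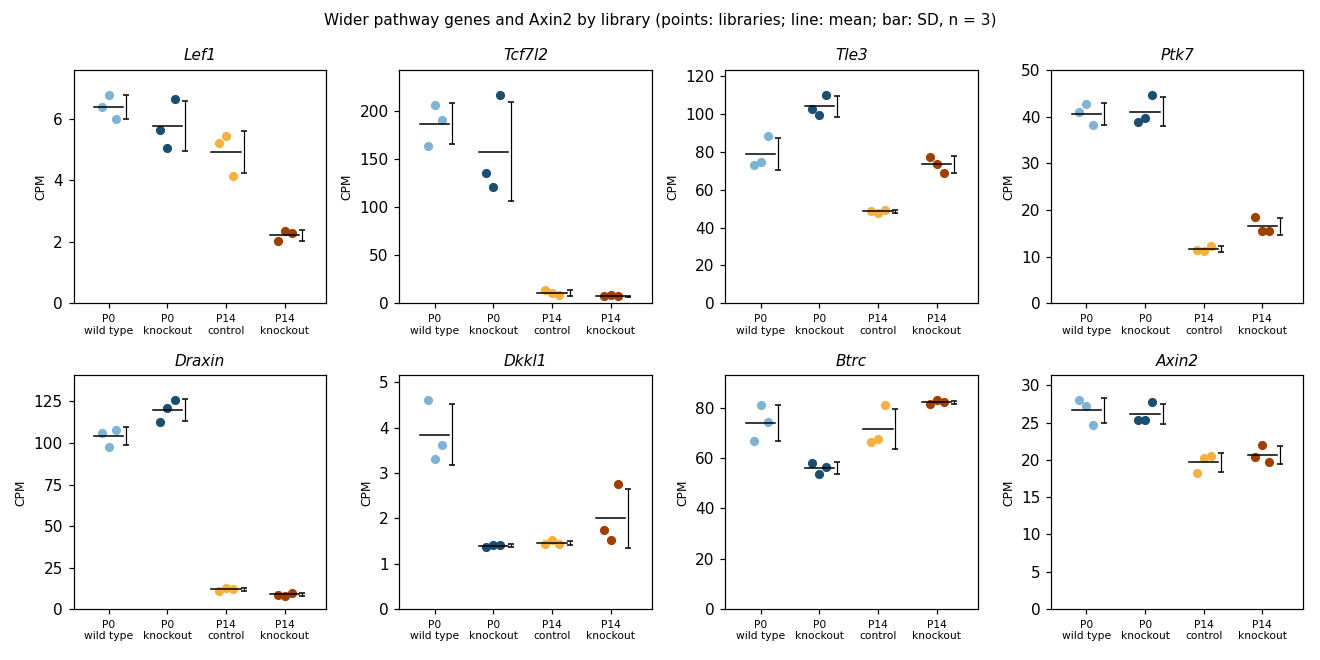
CPM of 7 further pathway genes and of Axin2 in each library, by group, with the mean as a line and the SD as a bar (n = 3). Lef1 is lower and Tle3 and Ptk7 are higher in the P14 knockouts, Dkkl1 is lower in the P0 knockouts, and Axin2 shows no separation of knockouts from controls.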

How the data were processed

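Individual mice were the replicates, and p-values measure the spread between them. Each library has 1 deposited file of raw read counts, keyed by Ensembl gene. Per the submitters' processing notes, STAR 2.7.5a and edgeR 3.12 were among the tools and GRCm38 was the build. The unstranded count column was used. Symbols, coordinates and exon lengths came from GENCODE vM21 on GRCm38, and 55227 of 55487 identifiers had a symbol.

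In R 4.3.3, edgeR 4.0.16 was run on the 6 libraries of each context (filterByExpr, TMM, estimateDisp, robust glmQLFit, glmQLFTest), adjusted by Benjamini-Hochberg over all genes tested, threshold 0.05. The SE was derived from the fitted value and its F statistic. The common biological coefficients of variation were 0.104 (P0) and 0.0998 (P14). Scripts were tested on simulated data. Replicate pairs within groups had a chi-square per degree of freedom of 2.93 to 17.5, so each library counted as 1 sample. Replicate numbers follow accession order and pair no libraries.

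The members and lists were chosen with earlier results of these data known. Named genes are Auts2, members with an unadjusted p under 0.05 at P0 or P14, members called in any genotype test, the 3 highest members per context, the 5 largest called rises and falls between controls, members near 0, and pathway genes called in a genotype test. Others were named after their values were seen, or to account for members. Alternatives were RLE normalization, DESeq2 1.42.0, no low-count filter, 1 fit on all 12 libraries, the library run as a term or the first run alone, the strand-column sum, and leaving out each library.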

Additional observations from a re-analysis of the deposited data

Results flagged for a closer look

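For 3 genes of the wider pathway, none of them a member, the genotype difference differed between contexts by the interaction term of the edgeR fit (P14 effect minus P0 effect). They were 3 of 64 tested (4.69%), against 1.79% of all genes. Draxin, an axon guidance protein that also binds Wnt co-receptors, had an interaction value of -0.64 (SE 0.13, adjusted p = 0.0139 by edgeR). It stood at 113, 121 and 126 CPM in P0 knockouts against 106, 97.8 and 108 CPM in P0 controls, and at 8.57, 8.06 and 9.92 CPM in P14 knockouts against 10.7, 12.4 and 12.3 CPM in P14 controls. Neither contrast alone was called for Draxin (0.20 at P0 and -0.42 at P14). Its interaction call was lost without the first P14 knockout (adjusted p = 0.0514), the second (0.0585) or the second P14 control (0.0588).

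Dkkl1 had an interaction value of 1.86 (SE 0.39, adjusted p = 0.0150 by edgeR), with 1.73, 1.52 and 2.75 CPM in P14 knockouts against 1.44, 1.51 and 1.43 CPM in P14 controls. It kept its call without each of the 12 libraries.

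Btrc, the subunit that marks beta-catenin for degradation, had an interaction value of 0.58 (SE 0.12, adjusted p = 0.0160 by edgeR). It stood at 58.0, 53.6 and 56.6 CPM in P0 knockouts against 66.6, 80.9 and 74.2 CPM in P0 controls, and at 81.7, 82.9 and 82.1 CPM in P14 knockouts against 66.4, 67.4 and 80.9 CPM in P14 controls. Its interaction call was lost without the second P14 control (0.54, adjusted p = 0.0693), the second P0 knockout (0.55, adjusted p = 0.0554) or the second P0 control (0.52, adjusted p = 0.0677).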

How the results depend on the processing

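The comparison of control groups kept its counts within 1.5 times under every alternative run. At P0 the 147 called genes became 374 with DESeq2, 625 without the filter, 284 in the 12-library fit, 465 with the library run as a term, 2107 in libraries 1407 to 1410 alone, 84 with the strand-column sum, and 1 to 775 when 1 library was left out. Called members at P0 went from 0 to 1 (Wnt7b) with DESeq2, without the filter, in the 12-library fit and with the run as a term, to 4 in libraries 1407 to 1410 alone, and to 0 to 3 with 1 library left out. At P14 the 342 called genes became 534 with DESeq2, 814 without the filter and 104 to 1808 with 1 library left out, and the 1 called member became 4 without the filter and 0 to 6. The 326 interaction calls became 531 with DESeq2, 646 without the filter and 125 to 905 with 1 library left out, and the 0 members became 1 with DESeq2 (Ctnnb1) and 0 to 1, namely Sfrp5 (1.93, adjusted p = 0.0360) without the third P14 control and Dkk3 (-0.41, adjusted p = 0.0316) without the third P0 knockout, both by edgeR. The cause of these changes was not tested. No named value changed sign. DESeq2 gave no adjusted p for Wnt6, Wif1, Wnt9b or Dkkl1 at P0, nor for Wnt6 or Sfrp5 in the interaction. No paired analysis was possible because replicate numbers follow accession order. Members with few counts, such as Wnt9b, Wnt6 and Sfrp5, have wide intervals.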

Other observations

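In the comparison of control groups, P14 hippocampus over P0 forebrain, the wider pathway genes had 15 called higher and 30 called lower of 64 tested by edgeR (70.3% called). Over all genes tested 64.7% were called, 32.5% higher and 32.2% lower, so a large called share is what the whole table shows. The lists below are to be read beside that share. Of the 5 R-spondin receptors and Frizzled ligases, 4 rose: Lgr5 (1.01, SE 0.27), Rnf43 (1.00, SE 0.28), Lgr4 (0.88, SE 0.10) and Znrf3 (0.40, SE 0.12), with Lgr6 at 0.44 and not called. Of the 13 TCF/LEF genes and co-factors, 8 fell and 0 rose. Tcf7l2, a factor enriched in the thalamus, fell by 3.90 on the log2 scale (SE 0.18), and Bcl9l and Bcl9, adaptors of beta-catenin, fell by 0.99 and 0.89. Porcn, the enzyme that adds the lipid to Wnt ligands, rose by 1.16 (SE 0.08), and Wls, their carrier, differed by -0.11. Age, tissue and control genotype cannot be told apart here.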
